A study of Mus musculus with 24 samples.

Results

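The adult mouse heart was compared with the heart of the pup at postnatal day 1 (P1), to see which genes and which exons differ between the newborn and the mature organ. By sample title the comparison takes 8 of the series' 24 deposited samples, 4 of its 12 gene-level samples and the 4 matching exon-level ones. Each age is represented by 2 arrays of RNA from whole heart, and each array was deposited both as gene-level values and as exon-level values of the Affymetrix mouse gene array. The other 8 gene-level arrays hold E17.5 whole hearts, ES cells, embryonic bodies and cardiac bodies, and serve here as a reference range. P1 hearts were dissected from pups, whose strain and sex are not in the labels used here. For the adult hearts the labels give "Adult" as the only age. No genetic change or treatment is named for either group, and whether the replicates of a group come from separate animals is not said. The p-values rest on the spread between replicates, pooled over all 12 arrays including the cultured cells. That spread may be technical.

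In the days and weeks after birth the mouse heart muscle cell leaves the cell cycle, exchanges fetal for adult forms of contractile proteins under thyroid hormone, and turns from glucose and lactate toward fatty acids as its fuel. Connective tissue, vessels and resident immune cells are remodelled over the same period, and many transcripts of muscle are spliced into adult forms. Whole heart RNA averages over all of these cells, and fewer cells of a type and less RNA per cell cannot be told apart.

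Signals are on a log2 scale, so a difference of 1 is a 2-fold change, and array values are given in the order replicate 1, replicate 2. Changes are adult minus P1 ± the standard error of the limma fit with n = 2 arrays per group. This error draws on the spread in all 12 arrays, so it can differ from that of the P1 and adult arrays alone. Calls needed a p below 0.05 after Benjamini-Hochberg adjustment over all genes. Of 19920 genes 6018 were called (30.2%), 3098 higher in the adult (15.6%) and 2920 lower (14.7%). The shares higher and lower are the background for every list count below. All of them had adult and P1 arrays that did not overlap. At least 2-fold changes numbered 1661 upward and 1264 downward, and 95 genes rose and 25 fell by 3 or more. Both adult arrays lay above both P1 arrays in 31.9% of all genes and below them in 28.4%. The median change over all genes was 0.04.

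Several facts about the libraries touch these counts. Gene-level values correlated at r = 0.913 to 0.922 between adult and P1 arrays, 0.952 to 0.98 between P1 and E17.5 arrays, 0.971 between the P1 arrays and 0.984 between the adult arrays, with genes, not replicates, as the points. The P1 arrays differed from each other: 991 genes were over 1 higher in replicate 1 and 85 in replicate 2. The adult arrays also stood apart from all others. Of the called genes, 76.3% of those higher and 67.7% of those lower had both adult values outside the range of the other 10 arrays. These genes were called on their difference between adult and P1, which by itself raises both shares. Among 9817 genes that varied by under 1 over those 10 arrays, 40 were over 2 above and 6 over 2 below that range in both adult arrays, against 0 to 3 in each direction when any other group was set against the rest. Whether the adult samples were prepared or hybridised together with the others is not in the labels, so a batch and the age cannot be told apart. The number of arrays limits the precision.

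**Figure D1:**
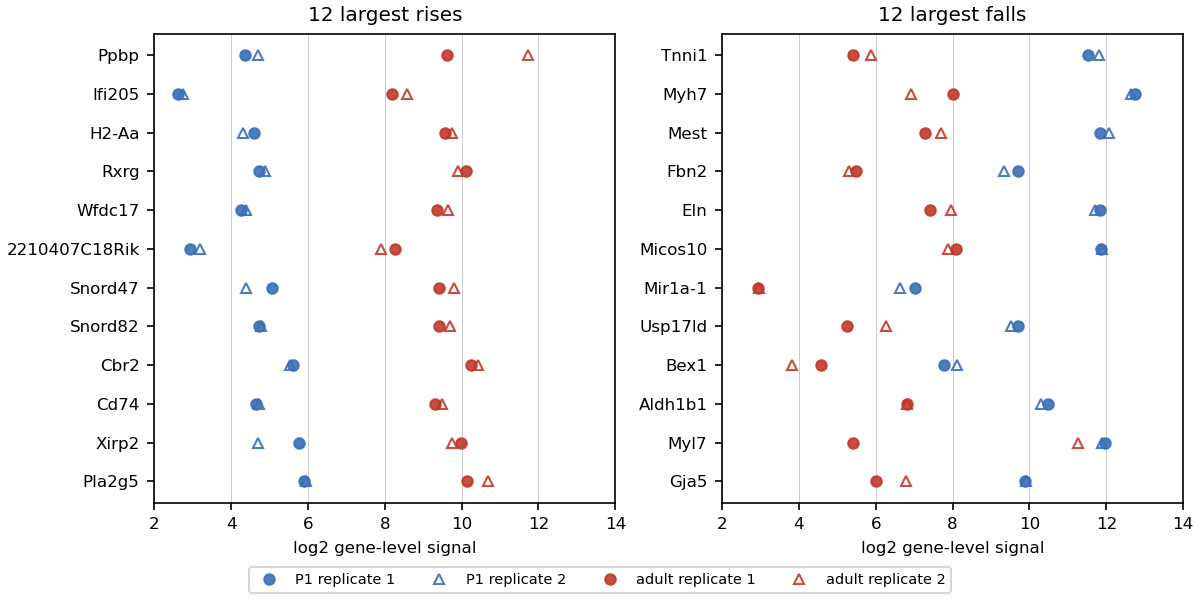
Log2 gene-level signal (x axis) in the 2 P1 arrays (blue) and 2 adult arrays (red) for the 12 genes with the largest rises and the 12 with the largest falls among called genes whose arrays do not overlap. Circles are replicate 1 and triangles replicate 2; Myl7 is the gene whose adult arrays lie farthest apart, at 5.42 and 11.27.

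The 12 largest falls included the muscle genes Tnni1 and Myh7 and the matrix genes Eln and Fbn2, and the 12 largest rises were genes of many kinds. Folds are given only where both groups read above the array medians, which lay between 5.62 and 5.76, since signals were not tested against background. Tnni1 (transcript cluster 10350149), the slow skeletal troponin I that the fetal heart uses, gave 11.53 and 11.8 at P1 and 5.42 and 5.89 in the adult. The groups lie far apart, and the gene fell by 6.01 ± 0.30 (adjusted p = 1.41e-07). Myh7, the beta myosin heavy chain, read 12.76 and 12.64 at P1 against 8 and 6.92 in the adult and fell by 5.24 ± 0.51 (37.8-fold, adjusted p = 1.6e-05). All 33 of its probe sets were lower in the adult. On the other side, Rxrg, a retinoid X receptor that pairs with other nuclear receptors, was near the bottom of the scale at P1 (4.72 and 4.89) and at 10.11 and 9.91 in the adult. It rose by 5.21 ± 0.19 (adjusted p = 2.55e-08). Xirp2, a protein of the adult intercalated disc, rose by 4.63 ± 0.28, from 5.76 and 4.71 to 9.99 and 9.74 (adjusted p = 3.98e-07). Pla2g5, a secreted phospholipase, rose by 4.51 ± 0.20.

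Ppbp, a chemokine of platelets, had the largest rise, 6.15 ± 0.52, with 4.35 and 4.69 at P1 and 9.62 and 11.72 in the adult. Both adult values exceed both P1 values, and adult replicate 2 is the higher of the pair. Ifi205, an interferon-inducible gene, rose by 5.69 ± 0.26 and Wfdc17 by 5.18 ± 0.20. Cbr2, a carbonyl reductase, rose by 4.76 ± 0.18. Snord47 and Snord82, small nucleolar RNAs that lie in introns of other genes, rose by 4.89 ± 0.31 and 4.79 ± 0.29. Among the falls were Mest, an imprinted gene of fetal growth (4.47 ± 0.24), Bex1 (3.75 ± 0.27) and Aldh1b1, a mitochondrial aldehyde dehydrogenase (3.58 ± 0.32). Micos10, a small subunit of the complex that shapes mitochondrial cristae, lay between 11.05 and 11.89 in all 10 other arrays and at 8.1 and 7.89 in the adult, a fall of 3.88 ± 0.15. Usp17ld fell by 3.85 ± 0.32, but it belongs to a family of near-identical copies whose signals an array may not separate.

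Of 20 fetal-type and smooth-muscle-type contractile genes 10 fell, 2 rose and 8 were not called, with a median change of -1. The falls were 50% of the list, beside 14.7% of all genes. Besides Tnni1 and Myh7 the falls included Acta2, smooth muscle actin, by 1.29 ± 0.32, and Cnn1, calponin, by 1.72 ± 0.39. The rises were Xirp2, described above as a protein of the adult disc, and the intermediate filament desmin (Des, 0.99 ± 0.25). Des is also counted in the adult-type list that follows. Its change was 0.81 without P1 replicate 1 and 0.89 without adult replicate 1, and its call was lost in both cases. Of 24 adult-type sarcomere genes 4 rose (16.7%, beside 15.6% of all genes) and 6 fell (25%, beside 14.7%), with a median of -0.21. Tnni3, the adult troponin I, read 11.35 and 11.7 at P1 and 12.52 and 12.36 in the adult, a rise of 0.92 ± 0.27 (adjusted p = 0.0229). Its call was lost without P1 replicate 1 (adjusted p = 0.112), without adult replicate 1 (0.113) and without adult replicate 2 (0.0635). Myh6, the alpha myosin heavy chain of the adult mouse ventricle, read 13.22 and 12.8 at P1 and 12.7 and 12.51 in the adult; its change of -0.40 ± 0.21 was not called (adjusted p = 0.178). Both P1 values of Myh6 lay above both adult values, by little.

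Lmod2, which sets the length of the thin filament, rose by 2.22 ± 0.30, from 8.36 and 8.02 to 10.46 and 10.36. Myoz2, a Z-disc protein, rose by 1.32 ± 0.31. Mybpc3, the cardiac myosin-binding protein C, fell by 1.52 ± 0.22, from 12.73 and 12.58 to 11.37 and 10.9, and all 32 of its probe sets were lower. Myl2, the ventricular light chain, fell by 0.93 ± 0.20. Actc1 (-0.17 ± 0.38), Tnnt2 (0.02 ± 0.19) and Ttn (-0.25 ± 0.32) were not called. Among all 485 genes with a mean above 10 over the 12 arrays, 165 were called lower, 81 higher and 239 not.

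**Figure D2:**
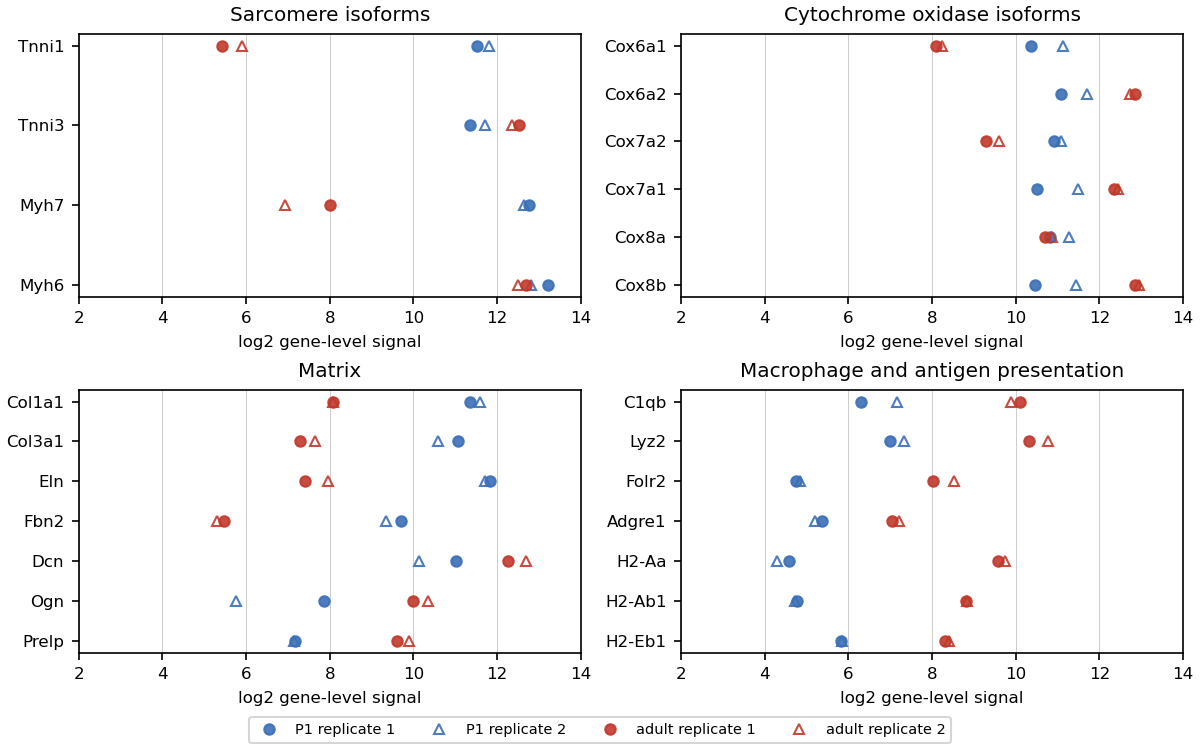
Log2 gene-level signal (x axis) in each P1 array (blue) and adult array (red), circles for replicate 1 and triangles for replicate 2, for sarcomere isoforms, cytochrome oxidase isoforms, matrix genes, and macrophage and antigen presentation genes. Within the isoform panels Tnni1, Myh7, Cox6a1 and Cox7a2 lie lower in the adult and Tnni3, Cox6a2, Cox7a1 and Cox8b higher.

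The adult arrays differed strongly in atrial genes, which bears on every atrial gene above and below. Myl7, the atrial regulatory light chain, read 11.96 and 11.88 at P1 but 5.42 and 11.27 in the adult. Myl4, the atrial essential light chain, read 11.88 and 12.14 at P1 against 7.01 and 12.28. Bmp10, a growth factor of the atrial wall chosen here after its values were seen, read 8.26 and 8.17 at P1 against 3.74 and 10.14. In each of these genes adult replicate 1 is far below P1 and adult replicate 2 is close to it or above it. Of 18 atrial markers measured, 8 were over 1 higher in adult replicate 2 and 0 in adult replicate 1. Their mean signal was 8.8 and 8.67 in the P1 arrays, 6.92 in adult replicate 1 and 8.9 in adult replicate 2. The mean of 14 ventricular markers, which include Myh7 with its large fall given above, was 9.34 and 9.57 at P1 and 8.67 and 8.47 in the adult. Of them 8 were called lower and 0 higher (0 also at an unadjusted p under 0.05). Fewer were called lower without P1 replicate 2 or either adult array.

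Counts and changes in the atrial list follow the array left out. With all arrays 2 markers rose and 6 fell, without adult replicate 1 5 rose and 3 fell, and without adult replicate 2 2 rose and 11 fell. The count of falls was also 3 without either P1 array. The fall of Myl7 by 3.58 ± 1.22 (adjusted p = 0.0425) was -0.65 without adult replicate 1 (adjusted p = 0.239) and -6.5 without adult replicate 2; without P1 replicate 1 or 2 the adjusted p was 0.112 or 0.11. Sarcolipin (Sln), an inhibitor of the calcium pump in atria, read 6.51 and 6.22 at P1 and 4.17 and 7.62 in the adult, a change of -0.47 ± 0.75 that was not called. It was 1.26 without adult replicate 1 (adjusted p = 0.0298) and -2.2 without adult replicate 2 (adjusted p = 0.00173). Bmp10 turned in the same way, from -1.28 to 1.92 (adjusted p = 0.00075) and -4.48. Gja5, connexin 40 of atria, conduction system and arteries, is a contrast, since both adult arrays were low: 9.88 and 9.92 at P1 and 6 and 6.78 in the adult, a fall of 3.51 ± 0.51 (adjusted p = 0.000279). One of its 3 probe sets was higher in the adult.

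Nppa, the atrial natriuretic peptide, which fetal ventricles also make, fell by 1.7 ± 0.58 (adjusted p = 0.0431), from 13.05 and 13.23 to 10.1 and 12.79. The change was -0.35 without adult replicate 1 (adjusted p = 0.364), and the call was also lost without P1 replicate 1 (0.0911) and without P1 replicate 2 (0.133). Nppb, the B-type peptide, read 7.44 and 8.84 at P1 and 7.98 and 7.01 in the adult, which overlap. Of 32 cardiac transcription factors 1 rose (3.12%, beside 15.6% of all genes) and 5 fell (15.6%, beside 14.7%), with a median of -0.12. Hey2, a Notch target of compact ventricular muscle, fell by 1.37 ± 0.32. The related Hey1 rose by 1.12 ± 0.37 (adjusted p = 0.04), a call lost whichever of the 4 arrays was left out, with adjusted p from 0.0523 to 0.166. Of this list 2 fell without adult replicate 2 and 3 without P1 replicate 2, and 2 rose without P1 replicate 1. Nkx2-5 (0.04 ± 0.25), Gata4 (-0.51 ± 0.32) and Tbx5 (0.67 ± 0.36) were not called.

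**Figure D3:**
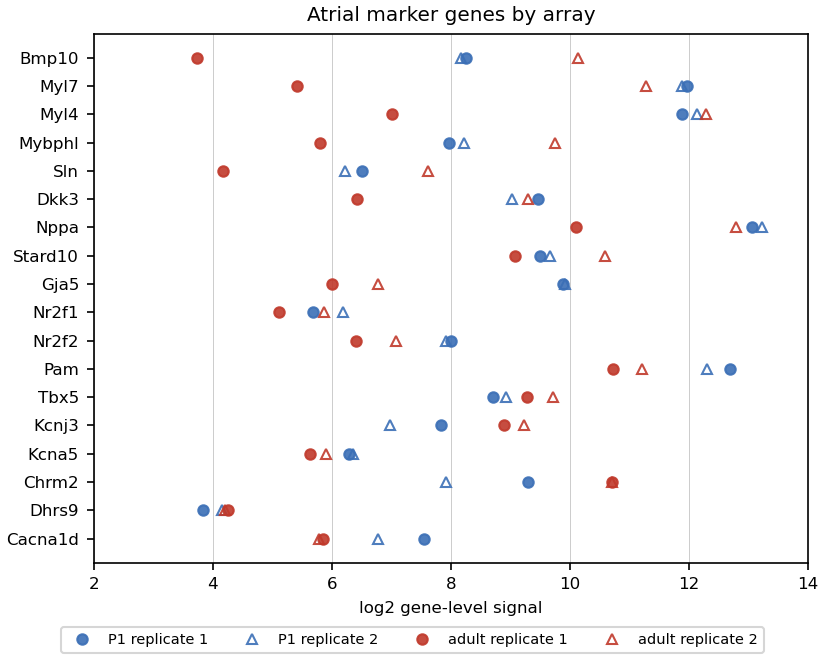
Log2 gene-level signal (x axis) of the 18 measured atrial marker genes in the 2 P1 arrays (blue) and the 2 adult arrays (red), circles for replicate 1 and triangles for replicate 2. From Bmp10 down to Nppa the adult circle lies far left of the adult triangle, which for Myl7 means 5.42 against 11.27.

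Genes of calcium release and repolarisation moved one by one. Triadin (Trdn), which anchors calsequestrin at the release channel, read 7.4 and 6.53 at P1 and 10.47 and 10.6 in the adult, a rise of 3.58 ± 0.35 (adjusted p = 1.63e-05). The sodium-calcium exchanger Slc8a1, which removes calcium from the cell, fell by 1.79 ± 0.30, from 11.3 and 10.6 to 9.26 and 9.07. Cacna2d1, a subunit of the L-type channel, rose by 2.52 ± 0.48, with 9.15 and 7.09 at P1 and 10.69 and 10.58 in the adult. S100a1, a calcium sensor, rose by 2.16 ± 0.51, a call lost without P1 replicate 1 (adjusted p = 0.0524). The pump Atp2a2 (-0.17 ± 0.18), its inhibitor Pln (0.22 ± 0.24), the release channel Ryr2 (0.2 ± 0.35) and calsequestrin Casq2 (0.17 ± 0.25) were not called. In all 5 of 30 calcium cycling genes rose (16.7%, beside 15.6% of all genes) and 8 fell (26.7%, beside 14.7%), with a median of -0.08. Fewer fell whichever of the P1 and adult arrays was left out.

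Of 19 potassium channel genes 6 rose (31.6%, beside 15.6% of all genes) and 2 fell, with a median of 0.14. The falls were 1 without P1 replicate 1, P1 replicate 2 or adult replicate 1, and both were lost without adult replicate 2. Kcnd2, which carries the fast transient outward current of the mouse ventricle, read 5.81 and 5.32 at P1 and 8.9 and 9.4 in the adult, a rise of 3.59 ± 0.22 (adjusted p = 4.87e-07). Kcnd3, of the same family, rose by 1.9 ± 0.21, Kcnv2 by 1.8 ± 0.18 and Kcnj3, of the acetylcholine-gated current, by 1.65 ± 0.30. In the sodium and pacemaker list 2 of 7 genes rose: Hcn2 by 1.16 ± 0.22 and Fxyd1, phospholemman, by 1.49 ± 0.26. Hcn4, the main pacemaker channel, was not called (0.59 ± 0.34). Gja1, the connexin of ventricular gap junctions, changed by -0.54 ± 0.23 and was not called. Of 16 gap junction and disc genes 5 fell (31.2%, beside 14.7% of all genes) and 1 rose (6.25%). Of that list 3 fell and 2 rose without P1 replicate 1, and 2 fell without adult replicate 2.

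Receptors of hormones that act on the postnatal heart shifted too. Thrb, the beta thyroid hormone receptor, read 4.6 and 4.58 at P1 and 7.38 and 7.39 in the adult, a rise of 2.79 ± 0.22. Thra, the main receptor of the heart, fell by 0.83 ± 0.21, from 10.04 and 10.23 to 9.33 and 9.28, with an adjusted p of 0.0109 that became 0.0532 without P1 replicate 2 and 0.0553 without adult replicate 2. Chrm2, the muscarinic receptor, rose by 2.11 ± 0.39, Ace, the angiotensin-converting enzyme, by 1.81 ± 0.25, and adenylyl cyclase Adcy5 fell by 2.07 ± 0.24. In this receptor list 6 of 16 genes rose (37.5%, beside 15.6% of all genes) and 3 fell (18.8%, beside 14.7%), with a median of 0.18.

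Genes of energy metabolism did not move as one block. Of 34 genes of fatty acid uptake and oxidation 7 rose (20.6%, beside 15.6% of all genes), 11 fell (32.4%, beside 14.7%) and 16 were not called. The median was -0.1. Cpt1a, the liver-type carnitine palmitoyltransferase, read 10.21 and 10.16 at P1 and 8.98 and 8.95 in the adult, a fall of 1.22 ± 0.18 (adjusted p = 0.000292). At E17.5 it stood at 8.46 and 8.24, below both later ages. Acot1, an acyl-CoA thioesterase, followed the same course with 7.31 and 7.5 at E17.5, 9.21 and 9.59 at P1 and 7.06 and 6.57 in the adult, a fall of 2.59 ± 0.21 after P1. The carriers Fabp3 (0.00 ± 0.18) and Cd36 (0.53 ± 0.50) were not called, nor was Pdk4 (0.32 ± 0.21), which was 8.43 and 8.27 at E17.5 and 11.09 and 10.74 at P1. The list's mean signal was 9.39 and 9.31 at E17.5, 10.39 and 10.3 at P1 and 10.19 in both adult arrays. For these genes the larger step thus lay before P1, a comparison not tested here.

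Single genes of ketone and lipid supply rose. Oxct1, the enzyme that commits ketone bodies to oxidation, rose by 1.65 ± 0.23 and Bdh1, which precedes it, by 1.57 ± 0.21. Lipoprotein lipase (Lpl) rose by 1.48 ± 0.29, from 11.25 and 10.35 to 12.33 and 12.24. In the lipid droplet list 7 of 21 genes rose (33.3%, beside 15.6% of all genes) and 3 fell (14.3%, beside 14.7%). Fewer rose without P1 replicate 1 or either adult array. Scd1, a fatty acid desaturase, rose by 3.61 ± 0.45 and Gpd1, glycerol phosphate dehydrogenase, by 3.6 ± 0.20, while fatty acid synthase (Fasn) fell by 1.77 ± 0.28. Of 10 brown fat genes 3 rose (30%, beside 15.6% of all genes) and 1 fell (10%, beside 14.7%). The rises were Ppargc1a, Cox7a1 and Cox8b, which are also counted in the regulator and cytochrome oxidase lists below. The mean signal of the 10 genes was 7.01 and 7.09 at P1 and 7.59 and 7.62 in the adult. The part of fat tissue in the lipid genes was not tested.

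Cytochrome oxidase, the last complex of the respiratory chain, has subunits with tissue isoforms, and these went both ways. Heart and muscle forms rose: Cox6a2 by 1.41 ± 0.29, from 11.07 and 11.7 to 12.86 and 12.72, and Cox8b by 1.95 ± 0.35, from 10.45 and 11.43 to 12.84 and 12.95. Cox7a1 rose by 1.4 ± 0.34, a call lost without P1 replicate 1 (adjusted p = 0.0652). The widely expressed forms Cox7a2 and Cox6a1 fell by 1.56 ± 0.18 and 2.59 ± 0.22, and Cox8a was not called (-0.26 ± 0.19). Cox7a2 read 10.92 and 11.08 at P1 and 9.28 and 9.59 in the adult, and all 7 of its probe sets were lower. Of the 4 probe sets of Cox6a1 2 were lower and 2 higher, so the size of its fall rests on part of the gene. The 11 isoform genes as a list had 4 rises and 4 falls. The wider list of citrate cycle and respiratory chain had 7 rises (17.1%, beside 15.6% of all genes) and 11 falls (26.8%, beside 14.7%) among 41 genes. Its median was -0.13, and it had fewer rises whichever of the P1 and adult arrays was left out. Cytochrome c (Cycs) rose by 1.36 ± 0.21 and Cox7b by 1.64 ± 0.21, and Uqcrfs1, the iron-sulfur protein of complex III, fell by 1.51 ± 0.20 with 1 of its 2 probe sets lower.

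Of 24 glycolysis and glucose uptake genes 8 fell (33.3%, beside 14.7% of all genes) and 3 rose (12.5%, beside 15.6%), with a median of -0.35. Aldoc, the aldolase of brain and fetal tissue, fell by 2.67 ± 0.30, and Pgam2, the muscle phosphoglycerate mutase, by 2.08 ± 0.28 with 2 of its 4 probe sets lower. The insulin-responsive glucose transporter Slc2a4 rose by 1.24 ± 0.23, from 8.94 and 9.34 to 10.48 and 10.27, while Slc2a1, the fetal transporter, was not called (-0.08 ± 0.28). Slc2a1 had stood at 10.67 and 10.74 at E17.5 and was at 8.28 and 9.03 at P1. Ldha was not called (0.07 ± 0.18). Of 19 energy buffer and carrier genes 8 rose and 1 fell, with a median of 0.25. Ckmt2, the mitochondrial creatine kinase, read 8.76 and 9.2 at P1 and 11.52 and 11.32 in the adult, a rise of 2.44 ± 0.19 (adjusted p = 3.04e-06). Gatm, which makes the precursor of creatine, rose by 1.96 ± 0.20 and the creatine transporter Slc6a8 by 1.13 ± 0.25. Cytosolic creatine kinase (Ckm, -0.28 ± 0.29) and myoglobin (Mb, 0.25 ± 0.24) were not called.

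Regulators of these pathways gave 8 rises (36.4%, beside 15.6% of all genes) and 4 falls (18.2%, beside 14.7%) among 22 genes, with a median of 0.31. The falls were fewer without P1 replicate 2 or either adult array. Ppargc1a, a coactivator of mitochondrial genes, rose by 1.42 ± 0.32 and Ppara, the receptor for fatty acids, by 1.28 ± 0.16, with 7.69 and 7.65 at P1 and 9.01 and 8.89 in the adult. Pparg rose by 1.64 ± 0.21. Nr1d1, a repressor of the circadian clock, rose by 2.76 ± 0.21, from 8.5 and 8.46 to 11.23 and 11.25. In the clock list 8 of 18 genes rose (44.4%, beside 15.6% of all genes) and 3 fell (16.7%, beside 14.7%), with a median of 0.46. Dbp, a clock output factor, rose by 2.14 ± 0.28, Clock by 2.15 ± 0.43 (8.58 and 6.63 at P1), and the repressor Cry1 fell by 1.58 ± 0.24. The time of day at which hearts were collected is not in the labels, so it cannot be told apart from age for these genes.

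**Figure D4:**
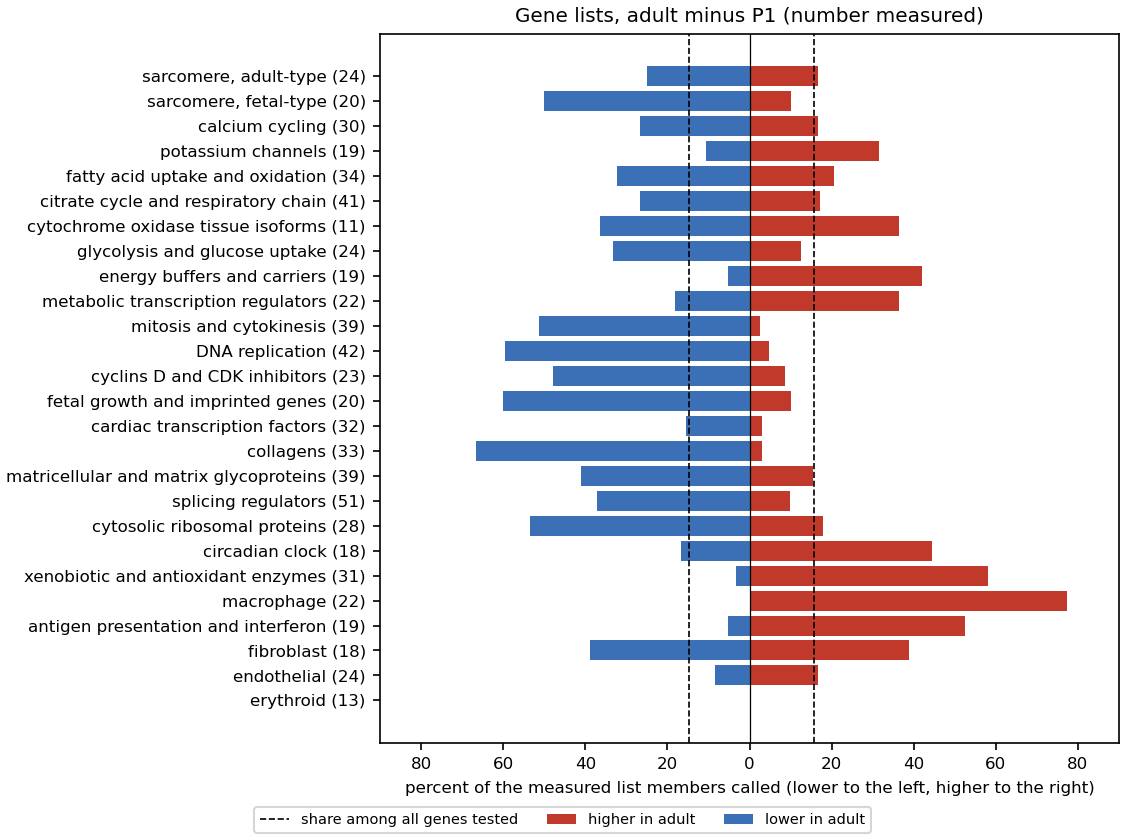
Percent of the measured members of 26 gene lists called lower (blue, left) or higher (red, right) in the adult heart, with the number measured after each name and dashed lines at the shares among all genes tested, 14.7% lower and 15.6% higher. Collagens reach 66.7% lower and macrophage genes 77.3% higher.

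Many proliferation genes were lower in the adult, and their mean signals were already lower at P1 than at E17.5. Of 42 DNA replication genes 25 fell and 2 rose (4 rose without P1 replicate 1 and 1 without adult replicate 2), with a median of -0.68. Rrm2, the ribonucleotide reductase subunit of S phase, read 10.14 and 10.01 at E17.5, 7.96 and 7.77 at P1 and 5.42 and 5.64 in the adult, a fall of 2.33 ± 0.19 after P1 (adjusted p = 4.67e-06). Mcm6, of the replicative helicase, fell by 2.19 ± 0.19, from 8.19 and 7.7 to 5.65 and 5.87. Of 39 genes of mitosis and cytokinesis 20 fell and 1 rose, with a median of -0.7. Bub1b, of the spindle checkpoint, read 9.46 and 9.11 at E17.5, 6.95 and 6.58 at P1 and 4.8 and 4.95 in the adult, a fall of 1.88 ± 0.20. Top2a, which untangles chromosomes, read 7.22 and 5.55 at P1 and 4.52 and 4.96 in the adult. It fell by 1.65 ± 0.39 (adjusted p = 0.00655), a call lost without adult replicate 1 (0.0594). Mki67, a common mark of cycling cells, read 7.22 and 5.99 at P1 and 5.96 and 5.89 in the adult and was not called.

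The P1 arrays stood apart in this list, with 11 of 39 mitosis genes over 1 higher in P1 replicate 1. Without P1 replicate 1 3 mitosis genes rose. The falls numbered 12 without P1 replicate 1, 25 without P1 replicate 2, 13 without adult replicate 1 and 15 without adult replicate 2. The mean signal of the 39 genes was 8.42 and 8.28 at E17.5, 6.14 and 5.53 at P1 and 5.21 and 5.3 in the adult. For the replication list it was 7.9 and 7.82, then 6.79 and 6.67, then 6.01 and 6.12. The step from E17.5 to P1 was thus the larger in both lists, and was not tested here. In the adult the mitosis means lay below the array medians (5.62 to 5.76), where the size of a further fall is uncertain. Of 23 cyclin, inhibitor and regulator genes 11 fell and 2 rose (1 rose without P1 replicate 2 or either adult array). Cdk6 fell by 1.78 ± 0.16 and Ccnd2, cyclin D2, by 1.42 ± 0.28; Cdkn1c, an imprinted inhibitor, fell by 1.78 ± 0.18. Rb1, the retinoblastoma gene that holds cells out of S phase, rose by 1.77 ± 0.33, from 7.53 and 6.29 to 8.66 and 8.69. Meis1, a homeobox factor linked to cell cycle exit of newborn heart muscle, fell by 0.99 ± 0.20.

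Promoter sequences are shown for genes of the proliferation lists because many of their members fell, 20 of 39 mitosis and 25 of 42 replication genes. Each is the RefSeq window of GRCm38.p6 from 250 bases before to 50 bases after the gene's start, read 5′ to 3′ on the gene's strand. Capitals mark matches on either strand to TTTGAA, the core of the element of mitotic genes known as CHR, or to TTCCCGC, a core of E2F sites. The genes are, for each list and motif, the 2 called members with the largest change whose window holds the motif. Bub1b lies at chr2:118597961-118598260 on the plus strand, Top2a at chr11:99024140-99024439 on the minus strand, Chaf1b, a chromatin assembly factor, at chr16:93883651-93883950 on the plus strand, and Mcm3, of the replicative helicase, at chr1:20820263-20820562 on the minus strand.
Bub1b: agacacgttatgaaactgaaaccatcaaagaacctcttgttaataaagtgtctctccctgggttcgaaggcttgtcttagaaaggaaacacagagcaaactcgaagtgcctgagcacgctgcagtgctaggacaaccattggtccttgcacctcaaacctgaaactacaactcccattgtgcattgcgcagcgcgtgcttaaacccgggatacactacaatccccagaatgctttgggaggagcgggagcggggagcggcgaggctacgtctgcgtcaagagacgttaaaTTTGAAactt
Top2a: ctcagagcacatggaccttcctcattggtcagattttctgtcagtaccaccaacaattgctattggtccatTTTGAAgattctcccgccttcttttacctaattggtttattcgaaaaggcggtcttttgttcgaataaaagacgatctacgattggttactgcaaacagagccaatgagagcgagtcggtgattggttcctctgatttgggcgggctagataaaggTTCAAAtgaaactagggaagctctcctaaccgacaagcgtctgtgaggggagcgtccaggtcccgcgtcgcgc
Chaf1b: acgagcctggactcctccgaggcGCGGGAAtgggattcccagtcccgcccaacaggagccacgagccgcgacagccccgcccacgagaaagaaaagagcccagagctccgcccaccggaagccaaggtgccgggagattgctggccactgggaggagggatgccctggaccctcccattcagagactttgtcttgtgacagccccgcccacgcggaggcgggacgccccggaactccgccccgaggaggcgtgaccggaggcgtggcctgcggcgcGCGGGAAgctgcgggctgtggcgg
Mcm3: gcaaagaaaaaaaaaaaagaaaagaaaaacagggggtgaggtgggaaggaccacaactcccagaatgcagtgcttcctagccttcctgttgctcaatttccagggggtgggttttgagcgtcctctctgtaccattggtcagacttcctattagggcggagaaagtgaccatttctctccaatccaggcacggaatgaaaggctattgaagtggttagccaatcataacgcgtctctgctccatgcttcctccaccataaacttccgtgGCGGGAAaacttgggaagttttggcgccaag
Chaf1b fell by 1.63 ± 0.19 and Mcm3 by 1.62 ± 0.18. TTTGAA stood in 21 of the 31 windows of mitosis genes that the table holds (67.7%), in 4 of 34 windows of replication genes (11.8%) and in 4893 of all 27025 promoter windows (18.1%). TTCCCGC stood in 1 of 31 (3.23%), 14 of 34 (41.2%) and 1260 of 27025 (4.66%). These are counts of letters in a window and were not compared with binding data.

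Fetal growth and imprinted genes fell in 12 of 20 cases and rose in 2 (1 without P1 replicate 2 or adult replicate 2), with a median of -1.19. Mest read 11.84 and 12.06 at P1 and 7.27 and 7.7 in the adult, and all 13 of its probe sets were lower. Igf2r, the receptor that clears Igf2, fell by 2.45 ± 0.25, the long noncoding RNA Meg3 by 2.4 ± 0.32 and Dlk1, a secreted inhibitor of differentiation, by 2.39 ± 0.44. Igf2, the fetal growth factor, read 11.65 and 12.05 at P1 and 9.67 and 11.45 in the adult, lower in both adult arrays but far more so in replicate 1. Its fall of 1.29 ± 0.41 (adjusted p = 0.0299) was -0.4 without adult replicate 1 (adjusted p = 0.261), and -1.09 without P1 replicate 2 (0.135). Of 13 genes around Lin28 and the Igf2 mRNA-binding proteins 6 fell and 0 rose in the limma fit (0 also at an unadjusted p under 0.05), with a median of -0.48. Sox4, a factor of progenitor cells, fell by 3.11 ± 0.24, Igf2bp3 by 2.72 ± 0.19 and Igf2bp1 by 1.84 ± 0.24; Lin28b was low at both ages (4.89 and 4.86 against 4.5 and 4.47) and not called. Igf1r fell by 1.31 ± 0.17 and Igfbp7 rose by 1.57 ± 0.17, while Igf1 was not called (0.7 ± 0.48).

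Of 33 collagens 22 fell (66.7%, against 14.7% of all genes) and 1 rose, with a median of -0.86. Col1a1, of fibrillar collagen I, read 11.36 and 11.6 at P1 and 8.07 and 8.07 in the adult, a fall of 3.4 ± 0.40, or 10.6-fold (adjusted p = 6.03e-05). Of its 52 probe sets 51 were lower. Col3a1 fell by 3.36 ± 0.60 and Col1a2 by 3.04 ± 0.39. The basement membrane collagen Col4a2 fell by 2.58 ± 0.21, from 9.77 and 9.93 to 7.32 and 7.22. Elastin (Eln), the core of elastic fibres, read 11.84 and 11.7 at P1 and 7.4 and 7.96 in the adult, a fall of 4.09 ± 0.27 (17-fold, adjusted p = 7.99e-07). Fbn2, the fetal fibrillin, fell by 4.15 ± 0.19, with all 66 of its probe sets lower. Eln had stood at 9.7 and 10.58 at E17.5, below both P1 arrays.

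Of 39 matrix glycoproteins and matricellular genes 16 fell (41%, beside 14.7% of all genes) and 6 rose (15.4%, beside 15.6%), with a median of -0.28. Fibronectin (Fn1) fell by 2.38 ± 0.30 and tenascin C (Tnc), a matrix protein of growing tissue, by 1.92 ± 0.25. Among the rises were 2 small leucine-rich proteoglycans, a family that binds collagen: Prelp by 2.6 ± 0.17, from 7.17 and 7.14 to 9.61 and 9.9, and Ogn by 3.35 ± 0.48, from 7.87 and 5.76 to 9.98 and 10.35. Decorin (Dcn) rose by 1.91 ± 0.49, but its adjusted p of 0.0103 was 0.0804 without P1 replicate 2 and 0.0767 without adult replicate 2. The integrin subunit Itgb6, usually epithelial, rose by 4.14 ± 0.21, from 4.28 and 4.3 to 8.61 and 8.25, with 21 of 22 probe sets higher. Lamb1, a laminin chain, fell by 2.54 ± 0.24. Fibroblast markers split evenly, 7 higher and 7 lower of 18. Collagens are among the falls, and the rises include Dpep1, a dipeptidase, by 2.77 ± 0.34. The mean signal of the fibroblast list was 9 and 8.77 at P1 and 8.55 and 8.81 in the adult. The rises numbered 4 without P1 replicate 2 and 3 without adult replicate 2.

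Of 22 macrophage genes 17 rose, with a median of 1.45, and limma called 0 lower, with 0 lower at an unadjusted p under 0.05 as well. Leaving out 1 array gave 15 to 18 rises. Lyz2, lysozyme, read 6.99 and 7.33 at P1 and 10.32 and 10.77 in the adult, a rise of 3.39 ± 0.21 (adjusted p = 6.6e-07). C1qb, of complement C1q, read 6.31 and 7.17 against 10.1 and 9.88 and rose by 3.25 ± 0.30. Folr2, a folate receptor of resident tissue macrophages, rose by 3.48 ± 0.28, and Adgre1, a surface antigen of macrophages chosen here after its values were seen, by 1.85 ± 0.17. The uncalled members were Aif1, C1qa, Fcgr1, Cx3cr1 and Ccr2, with changes from -0.24 to 0.49. The mean signal of the 22 genes was 5.75 and 5.89 at P1, 5.83 and 5.81 at E17.5, and 7.24 and 7.5 in the adult.

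Of 19 antigen presentation and interferon genes 10 rose (52.6%, against 15.6% of all genes) and 1 fell, with a median of 0.64. H2-Aa, an MHC class II chain, read 4.59 and 4.3 at P1 and 9.57 and 9.75 in the adult, a rise of 5.21 ± 0.24 (adjusted p = 6.26e-08). H2-Ab1, its partner chain, rose by 4.08 ± 0.16, H2-Eb1 by 2.52 ± 0.17 and the invariant chain Cd74 by 4.71 ± 0.25. Class II promoters are shown because these 4 genes rose. Capitals mark CTGATTGG, the core of the Y box of class II promoters, on either strand. The windows shown are those of called list members that hold this motif. No window was available for H2-Ab1, so it was not searched, and Cd74 is not shown. H2-Aa lies at chr17:34287774-34288073 on the minus strand and H2-Eb1 at chr17:34305617-34305916 on the plus strand of GRCm38.p6, both from RefSeq.
H2-Aa: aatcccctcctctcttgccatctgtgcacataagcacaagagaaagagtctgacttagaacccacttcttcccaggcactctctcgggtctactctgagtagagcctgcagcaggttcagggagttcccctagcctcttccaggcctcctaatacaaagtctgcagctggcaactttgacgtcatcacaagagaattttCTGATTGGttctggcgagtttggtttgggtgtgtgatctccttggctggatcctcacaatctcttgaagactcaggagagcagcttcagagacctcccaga
H2-Eb1: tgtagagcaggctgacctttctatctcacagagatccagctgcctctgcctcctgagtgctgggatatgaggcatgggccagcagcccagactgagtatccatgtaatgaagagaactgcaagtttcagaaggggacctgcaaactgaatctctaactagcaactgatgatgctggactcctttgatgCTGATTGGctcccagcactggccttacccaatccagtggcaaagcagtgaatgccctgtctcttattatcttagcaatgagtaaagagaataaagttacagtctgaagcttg
The motif stood in 4 of 13 windows of the antigen presentation list (30.8%) and in 1166 of 27025 overall (4.31%). Of the 8 windows of members of that list called higher, 2 held it. It also stood in 8 of 31 windows of mitosis genes (25.8%) and in 7 of 34 of replication genes (20.6%).

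Other blood cells gave a mixed picture. Lymphocyte markers rose in 5 of 16 cases and fell in 0 (0 also at an unadjusted p under 0.05), but rose in 3 without P1 replicate 1 and 2 without adult replicate 2, and their mean signal stayed low (4.47 and 4.61 at P1, 4.83 and 4.92 in the adult). Of 12 granulocyte and mast cell genes 2 rose and 2 fell (16.7% each, beside 15.6% and 14.7% of all genes). Without adult replicate 1 or either P1 array more rose and fewer fell. Lcn2, lipocalin 2 of neutrophils, rose by 4.14 ± 0.23, from 5.27 and 5.72 to 9.32 and 9.96. Of 13 erythroid genes 0 were called in the limma fit and 0 had an unadjusted p under 0.05, with changes between -0.29 and 0.84. Leaving out 1 array called 1 erythroid gene, higher without P1 replicate 1 or adult replicate 1 and lower without P1 replicate 2 or adult replicate 2. Endothelial genes showed 4 rises and 2 falls of 24, near the background shares, with a median of 0.08; only 1 rose without P1 replicate 1, and 2 without either adult array. Epicardial genes fell in 6 of 14 cases and rose in 1, with Aldh1a2, which makes retinoic acid, down by 1.83 ± 0.20; 3 fell without P1 replicate 2 or adult replicate 2.

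Enzymes that handle foreign compounds and peroxide rose in 18 of 31 cases and fell in 1, with a median of 1.37. Gstk1, a glutathione transferase of mitochondria and peroxisomes, read 7.92 and 8.22 at P1 and 11.14 and 11.25 in the adult, a rise of 3.13 ± 0.21. Catalase (Cat) rose by 2.14 ± 0.17, from 9.2 and 9.4 to 11.44 and 11.45. Inmt, a methyltransferase, rose by 4.49 ± 0.29 and the carboxylesterase Ces1d by 4.12 ± 0.24. In the heat shock and chaperone list 5 of 18 genes rose (27.8%, beside 15.6% of all genes) and 4 fell (22.2%, beside 14.7%). Both rises and falls were fewer whichever of the P1 and adult arrays was left out. Hspb8 rose by 2.72 ± 0.19 and Hspb6 by 2.27 ± 0.30, while Cryab, another small heat shock protein of muscle, was not called at 0.5 ± 0.19. Of 28 ribosomal protein genes 15 fell and 5 rose, with a median of -0.7. Among the rises was Rpl3l, the striated-muscle form of Rpl3, with 5.45 and 5.48 at P1 and 9.72 and 9.56 in the adult, a rise of 4.18 ± 0.18 (adjusted p = 3.97e-08). Rps18 fell by 2.77 ± 0.18 at gene level while its exon-level value changed by -0.32, and ribosomal protein genes share sequence with many pseudogenes.

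Signals between cells changed in single members. In the neuregulin, FGF and retinoic acid list 6 of 32 genes rose and 6 fell (18.8% each, beside 15.6% and 14.7% of all genes). Erbb2, a receptor for neuregulin signals, read 8.28 and 8.65 at P1 and 6.62 and 6.44 in the adult, a fall of 1.93 ± 0.19 (adjusted p = 1.83e-05), and its partner Erbb4 was not called (-0.69 ± 0.38). The ligand gene Nrg1 rose by 0.98 ± 0.24, from 5.54 and 5.52 to 6.66 and 6.35, a call lost without adult replicate 1 (adjusted p = 0.0654). Fgf16, a growth factor of heart muscle, rose by 2.17 ± 0.22 and the FGF inhibitor Spry2 fell by 2.22 ± 0.23. Of 41 BMP and TGF-beta genes 10 fell (24.4%) and 4 rose (9.76%), with Bmp7 down by 1.77 ± 0.34. Without adult replicate 1 more rose than fell, and without adult replicate 2 fewer fell. Of 36 Wnt genes 7 fell (19.4%) and 2 rose (5.56%). Falls were fewer without P1 replicate 2 or adult replicate 1, and rises without adult replicate 2. Of 20 Notch genes 6 fell (30%) and 1 rose (5%), a rise lost whichever array was left out.

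MicroRNA genes had 287 measured genes, of which 15 rose and 56 fell, with a median of -0.14. Among all genes 15.6% rose and 14.7% fell. Mir1a-1 and Mir208a are shown because both come from muscle transcripts and both fell; seeds, bases 2 to 8, are in capitals, and the sequences are RefSeq's for GRCm38.p6. They lie at chr14:54949072-54949093 (miR-208a-3p) and chr14:54949107-54949128 (miR-208a-5p), both on the minus strand, and chr2:180389057-180389079 (miR-1a-1-5p) on the plus strand. No seed is shared among the 3. For Mir1a-1 only the 5p sequence was available, so a 3p seed is neither shown nor compared.
mmu-miR-208a-3p: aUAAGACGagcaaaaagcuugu
mmu-miR-208a-5p: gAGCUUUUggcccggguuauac
mmu-miR-1a-1-5p: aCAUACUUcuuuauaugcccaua
Mir208a, which sits in an intron of Myh6, was chosen after its values were seen. It read 10.08 and 8.38 at P1 and 6.36 and 6 in the adult, a fall of 3.05 ± 0.44 (adjusted p = 0.000253). At E17.5 Mir208a had read 6.77 and 5.77, close to the adult values, so its high signal was limited to P1 among the hearts. Myh6 itself was not called. Mir1a-1 read 7.01 and 6.62 against 2.93 and 2.97, a fall of 3.87 ± 0.31; at E17.5 it had read 4.94 and 3.75. The arrays measured RNA over the gene, whether precursor or host transcript, and mature microRNAs were not measured.

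Of 51 splicing regulators 19 fell (37.3%, beside 14.7% of all genes) and 5 rose (9.8%, beside 15.6%), with a median of -0.24; 8 rose without P1 replicate 1. Rbm20, which controls titin splicing, read 10.41 and 10.1 at P1 and 8.81 and 8.61 in the adult, a fall of 1.54 ± 0.21 (adjusted p = 0.000165). Rbfox1 rose by 2.39 ± 0.23, from 7.29 and 6.52 to 9.25 and 9.34, while its relative Rbfox2 fell by 1.12 ± 0.18. Mbnl1, of the muscleblind family, rose by 1.42 ± 0.29, from 9.67 and 8.56 to 10.49 and 10.59. Hnrnpd fell by 2.44 ± 0.18. Celf2 (0.5 ± 0.32), Ptbp1 (0.47 ± 0.20) and Rbm24 (-0.88 ± 0.33) were not called.

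At exon level the splicing index, the probe set signal minus the gene signal, was compared for 94451 probe sets in 8037 genes. Calls needed an index change of 1 or more and an adjusted p below 0.05, and 14515 were called (15.4%), 6604 higher in the adult (6.99%) and 7911 lower (8.38%), in 5529 genes. In genes whose level changed by at most 1 the calls were 11244 of 74986 probe sets, and in genes that changed more the share was 16.8%. Without P1 replicate 2 the count was 9499. An index shift of at least 1 from P1 was seen in 21.8% of probe sets in the adult, 4.13% at E17.5, 7.71% in cardiac bodies, 9.46% in embryonic bodies and 12.5% in ES cells. These probe sets were admitted by their level in P1 and adult hearts. With a filter set over all 6 groups, chosen after the data were seen, the share was 22.1% in the adult and 9.25% in ES cells over 85058 probe sets, and with no filter 24.6% and 16% over 197783. At gene level adult arrays correlated with P1 at 0.913 to 0.922 and cultured cells did at 0.806 to 0.912. Index values correlated at 0.64 to 0.652 between adult and P1 and at 0.709 to 0.826 between P1 and cultured cells, and at 0.873 between the adult arrays. Of the called probe sets 85.4% had both adult indices outside the range of the other 10 arrays. Their calls rest on the difference between adult and P1, which by itself raises this share. A property of the adult arrays as a set cannot be told apart from age in these counts.

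**Figure D5:**
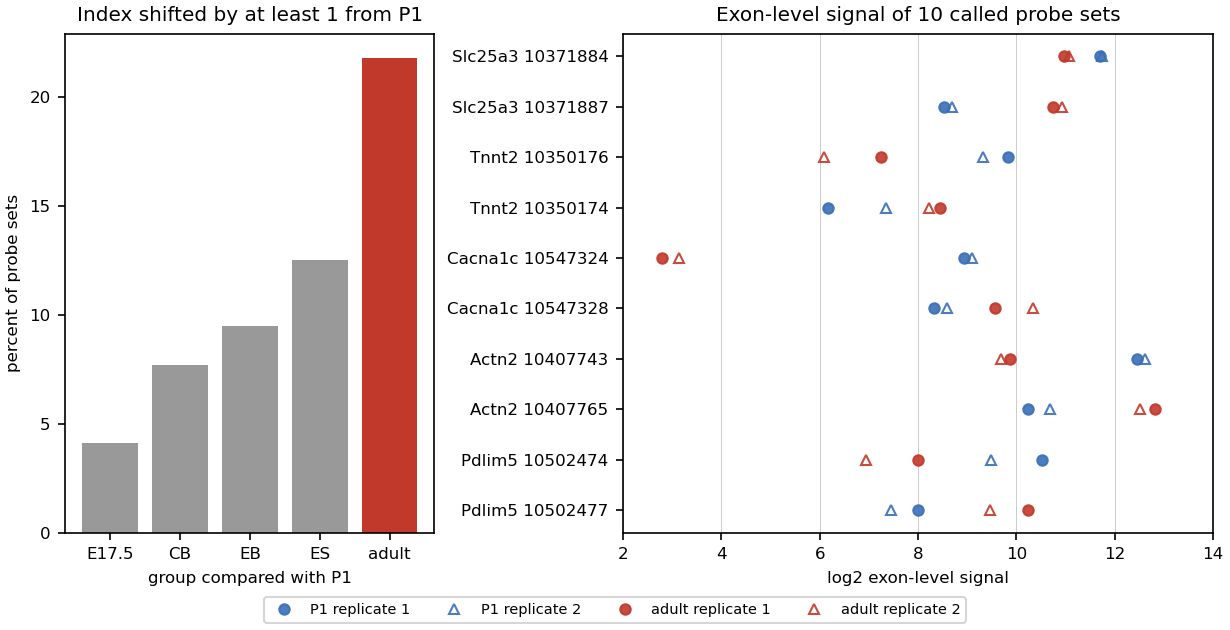
Left, percent of the 94451 tested probe sets whose mean index differs from P1 by at least 1 in each other group, from 4.13% at E17.5 to 21.8% in the adult. Right, log2 exon-level signal of 10 called probe sets of 5 genes in each array (P1 blue, adult red, circles replicate 1, triangles replicate 2), in which each gene has 1 probe set lower and 1 higher in the adult.

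Of 2970 probe sets in 114 genes known for alternative splicing in heart, 399 were called (13.4%, against 15.4% of all), in 98 genes. The mitochondrial phosphate carrier Slc25a3 has a muscle form and a general form that differ by a pair of mutually exclusive exons. Its probe set 10371884 fell from 11.69 and 11.73 to 10.96 and 11.06, an index change of -1.49 ± 0.19 (adjusted p = 0.00144), while 10371887 went from 8.52 and 8.69 to 10.75 and 10.92, an index change of 1.44 ± 0.21 (0.00277). Troponin T (Tnnt2), which loses an exon after birth, had no change at gene level, but its probe set 10350176 read 9.82 and 9.32 at P1 and 7.25 and 6.08 in the adult, an index change of -2.92 ± 0.56 (0.00801). Alpha-actinin (Actn2) had probe set 10407743 fall from 12.46 and 12.62 to 9.86 and 9.69 (index change -2.32 ± 0.29) and 10407765 rise from 10.24 and 10.68 to 12.81 and 12.51 (index change 2.64 ± 0.19, adjusted p = 0.000238). These 3 genes were chosen after their values were seen, and the exon to which each probe set belongs was not matched here.

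Among the 10 largest index changes was one of Cacna1c, the L-type calcium channel of heart muscle. Its probe set 10547324 read 8.93 and 9.09 at P1 and 2.79 and 3.14 in the adult, with a gene change of -0.45, an index change of -5.6 ± 0.77 (adjusted p = 0.00197). Of 53 Cacna1c probe sets 4 were called, 2 in each direction, and 3 of these calls were lost when at least 1 array was left out; that of 10547324 was kept. Long genes of the cytoskeleton gave further examples: dystonin (Dst) probe set 10345256 went from 6.2 and 6.1 to 11.34 and 11.1 (index change 4.13 ± 0.56), and ankyrin 3 (Ank3) probe set 10363813 from 8.75 and 8.42 to 4.54 and 5.31 (-3.91 ± 0.53). Pdlim5, a Z-disc adaptor, had 7 of 12 probe sets called, 6 lower and 1 higher; the 6 were not called when the median of the other probe sets stood for the gene level. Ldb3, another Z-disc protein, had 8 of 19 called, 6 of which were lost when at least 1 single array was left out. Titin had 30 of 320 called (9.38%), below the background share, and most of these calls were lost when at least 1 array was left out. Camk2d (25 probe sets), Tpm1 (16), Mef2a (15), Mef2d (12) and Fxr1 (18) had 0 called; at an unadjusted p under 0.05 the numbers were 3, 3, 4, 7 and 3, and diffSplice called 1, in Mef2d.

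The probe sets with the largest index changes of all belonged to genes of many kinds. In Rbm5, an RNA-binding protein, probe set 10596787 read 2.42 and 1.99 at P1 and 8.44 and 8.2 in the adult (index change 7 ± 0.75, adjusted p = 0.000761). In Itpr3, an inositol trisphosphate receptor, probe set 10443155 went from 5.67 and 4.28 to 10.71 and 10.86 (6.07 ± 0.52). In Arpc5, of the actin-branching complex, 10350685 lay between 11.99 and 13.05 in all 10 other arrays and at 7.79 and 7.8 in the adult (-5.41 ± 0.22, adjusted p = 6.36e-05). All 10 largest had adult indices outside the range of the other 10 arrays. Trdn shows how a gene's own rise enters the index: probe set 10362413 read 8.49 and 6.56 at P1 and 8.15 and 7.6 in the adult, which overlap, but because the gene rose by 3.58 its index fell by 3.23 ± 0.76, a call lost without P1 replicate 1 or adult replicate 2.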

How the data were processed

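Affymetrix mouse gene arrays measured 12 RNA samples in 6 groups of 2. Per the submitters' processing notes, the deposited log2 values were made by the authors with RMA in Affymetrix Power Tools, and they were used without further normalization. The genome build and program versions were not given in the sources used here. Per the labels' protocols, RNA was depleted of ribosomal RNA and amplified. Features with 1 gene symbol in the platform annotation were kept (21789 of 35556 transcript clusters, 212097 of 241576 probe sets), with the brightest cluster per gene, giving 19920 genes.

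All 12 arrays entered one fit in limma 3.58.1 (R 4.3.3) with 6 group means, 6 residual and 6.2 prior degrees of freedom, and Benjamini-Hochberg adjusted p-values over all features. The splicing index used genes with at least 4 probe sets, with the gene's mean in both groups and the probe set's in at least 1 group at or above percentile 50. Scripts were tested on simulated data. Figures were drawn with matplotlib 3.10.9 in Python 3.11.15. Signals were not tested against background.

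The members, the 53 gene lists (1176 of 1259 entries measured) and the tests were chosen with earlier results of these data known. Named genes are the 12 largest rises and falls among called genes with groups apart, up to 4 called per list and a fixed set. Named probe sets are the 10 largest changes, 1 per gene, and up to 8 in genes known for splicing. Genes outside this rule were chosen after their values were seen; in the report these are Bmp10, Dcn, Adgre1, Mir208a, Slc25a3, Actn2, Pdlim5, Ldb3, Chaf1b, Mcm3 and the genes or list members named as not called, and those of the closing section. H19, Hba-a1, Cpt1b, Ccnb1 and Cdkn1a, on the fixed list, are not analysed here.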

Additional observations from a re-analysis of the deposited data

How the results depend on the processing

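A fit of only the 4 P1 and adult arrays, which has fewer samples to estimate the spread, called 3621 genes, 1945 higher and 1676 lower. Leaving out 1 array gave 4529 to 5938 genes, 2374 to 3082 higher and 2155 to 2856 lower. Quantile normalization, a level filter, an intensity trend, other summaries of a gene and only the 6 heart arrays kept both counts within 1.5 times of those reported. For the splicing index, a filter at percentile 70, which tests fewer probe sets, left 7818 calls, 3802 higher and 4016 lower. Leaving out 1 array gave 9499 to 12306, with 4460 to 4709 higher and 5039 to 7597 lower; the lowest total and lowest count of falls, 9499 and 5039, were without P1 replicate 2. Without a filter on level 20099 were called, and with diffSplice 14548.

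With the replicate number as a block 5812 genes (3003 higher, 2809 lower) and 13997 probe sets (6346 higher, 7651 lower) were called. The labels do not say that numbers pair samples. The replicate differences of P1 and adult correlated at -0.062 over 19920 genes. Over all pairs of groups this correlation ran from -0.176 (cardiac bodies with P1) to 0.29 (E17.5 with P1). Such values cannot show whether samples with the same number were paired.

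Of 261 genes named or listed by the rule 218 were called, 171 of them under every alternative run. Over all combinations of gene and alternative 2956 stayed on their side of the threshold, 139 lost a call and 12 gained one. The sign changed in 19 combinations of 12 genes, none of them called with all arrays, and Sln alone was called after the change. Sln ran from -2.2 without adult replicate 2 to 1.26 without adult replicate 1. Bmp10, added after its values were seen, also turned, to 1.92. For named probe sets 169 combinations kept the call and 4 lost it. The number of arrays limits what smaller changes could be called.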

Other observations

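Platelet genes other than Ppbp were looked up after its values were seen. Gp9, a platelet surface glycoprotein, read 5.64 and 5.84 at P1 and 7.81 and 10.38 in the adult, a rise of 3.35 ± 0.55 (adjusted p = 0.000625). Tubb1, the platelet tubulin, rose by 2.11 ± 0.44, Pf4, platelet factor 4, by 1.16 ± 0.26 and Nrgn by 2.09 ± 0.38. Each was higher in adult replicate 2 than in adult replicate 1. Itga2b, an integrin of platelets, was not called (-0.17 ± 0.27). Nor was Clec1b (0.84 ± 0.48), which read 4.3 and 4.22 at P1 and 4.27 and 5.93 in the adult. Chemokine genes of myeloid cells, also looked up after the data were seen, rose as well: Ccl6 by 3.35 ± 0.24, from 5.06 and 5.21 to 8.19 and 8.78, and Ccl9 by 2.49 ± 0.27. The complement gene C7 rose by 3.08 ± 0.17. Of other chemokine genes looked up, Cxcl14 rose by 1.56 ± 0.23 and Cxcl12 was not called (-0.19 ± 0.29). Gzma was not called either (0.53 ± 0.26).

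Single genes looked up after the data were seen set the adult or 1 P1 array apart. Actr3, of the actin-branching complex, lay between 10.1 and 10.58 in the 10 other arrays, with 10.54 and 10.36 at P1, and at 7.46 and 7.29 in the adult, a fall of 3.07 ± 0.16. Kif5b, a kinesin, rose by 1.94 ± 0.47, but its P1 arrays differed (8.9 and 6.81). Stag2 and Smc3, of cohesin, read 8.52 and 5.85, and 8.81 and 6.46, in P1 replicates 1 and 2 and were not called. Of 6703 features with no gene symbol and identical values in both tables, 1783 had both adult arrays outside the range of the other 10, and 1138 of these were also over 1 from P1.

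Other lists are given by their counts, to be read beside 15.6% higher and 14.7% lower among all genes. Of 16 smooth muscle and pericyte genes 4 rose and 5 fell, with Vtn, vitronectin, up by 3.55. Skeletal muscle markers gave 2 rises and 1 fall of 16, Schwann cell and neuron markers 3 and 1 of 15, lung, liver and thyroid markers 2 and 3 of 12, valve and endocardium genes 1 and 2 of 14, and immediate early genes 3 and 3 of 21. Of 17 collagen processing genes 2 rose and 3 fell (1 rise and 1 fall without adult replicate 1), of 27 laminins and integrins 2 and 6, of 20 insulin and IGF genes 2 and 4, and of 12 natriuretic peptide and stress genes 1 and 3. Several of these counts moved when 1 array was left out. Lung, liver and thyroid markers had 1 fall without P1 replicate 2 or without adult replicate 1. Skeletal muscle markers had 1 rise whichever array was left out, and lost the fall without P1 replicate 2 or adult replicate 2. Valve and endocardium genes had 1 fall without P1 replicate 2 or either adult array, and 2 rises without P1 replicate 2. Insulin and IGF genes had 4 rises without P1 replicate 2, and the natriuretic list lost its rise without P1 replicate 2 or either adult array.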
